A study of Mus musculus with 8 samples.

Results

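The genes described here are the Notch ligands Jag1, Jag2 and Dll1, the receptors Notch1, Notch2 and Notch3, and the target genes Hes1, Hey1, Hey2 and Heyl. They were chosen by name, as the rows of the deposited expression table that carry these symbols, and all 10 were found among the 19301 genes listed. The cells were primary tendon stem cells (TSCs) grown out of collagenase-digested patellar tendons of C57BL/6J mice, whose age is not given in the sources used here. Cells of the low glucose group (LG) were cultured in low glucose medium with the solvent DMSO, and cells of the high fat, high glucose group (HFHG) in high glucose medium with palmitic acid, a saturated fatty acid. Both media were applied for 4 days, and mRNA from 4 biological replicates per group was sequenced. The comparison asks how a medium that imitates the high glucose and lipid levels of diabetes alters the transcripts of these cells. Glucose and palmitic acid were raised together, so their separate effects cannot be told apart. The sources do not say whether the replicates came from separate animals, and p-values measure only the spread between these samples.

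Notch signalling passes between touching cells. A Jagged or Delta-like ligand on the sending cell pulls on a Notch receptor of the neighbouring cell, which is then cut by an ADAM protease and by gamma-secretase, and the freed intracellular domain enters the nucleus, joins the DNA-binding protein Rbpj and Mastermind-like coactivators, and switches on genes of the Hes and Hey families of transcription repressors. In many tissues the pathway keeps stem and progenitor cells from differentiating, and in the skeleton it is known for restraining the step from mesenchymal progenitor to osteoblast.

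Expression was given as FPKM, a unit that scales a gene's reads to gene length and library size. The reads behind the FPKM could be recovered as whole numbers and totalled 35385644 to 37362725 per HFHG library and 34308108 to 36308533 per LG library. The first principal component of the tested genes held 81.0% of the variance and separated the groups. LG replicate 4 stood apart from the other libraries on the second component (4.18% of the variance), with a score of 13.8 against -7.93 to 2.49 in the others. Its pairs with other LG libraries also differed more (7.56 to 10.8 times the variance of Poisson counting, against 3.40 to 4.64 times in the other pairs of a group), and results that change without it are given as such. Differential expression was tested with limma on log2(FPKM + 0.1) over the 11710 genes that reached 0.5 FPKM in at least 4 of the 8 libraries. A gene was called when its p-value, adjusted over all these genes by the Benjamini-Hochberg method, was below 0.05. The log2 fold changes are HFHG minus LG on that scale, which understates changes of low genes.

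Of the 10 genes, 5 passed this filter on low values. Notch1, Notch2, Notch3 and Hes1 passed it in both groups, whereas Jag1 passed only through the HFHG libraries and therefore had to differ. Among these 5 genes, Jag1, Notch1, Notch2 and Notch3 were called higher in HFHG and Hes1 was not called. In the background of all genes tested, 64.8% were called in either direction, 34.0% higher and 30.8% lower in HFHG, so that a call by itself sets no gene apart in these data. The study's methods name a fold change above 2 and a p-value below 0.05 for differential expression, without saying whether it is adjusted. With the p-value taken here as unadjusted, Jag1 and Notch3 also passed this threshold, which 3.68% of the genes tested passed upward. The FPKM of the 4 HFHG and the 4 LG libraries did not overlap for 6 of the 10 genes, namely the 3 ligands and the 3 receptors, all higher in HFHG, and overlapped for the 4 targets. In the background, 59.2% of the genes tested had groups that did not overlap, a set without the members below the filter, such as Jag2 and Dll1. Since TSC cultures were sequenced in bulk, fewer cells of a type and less RNA per cell cannot be told apart.

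**Figure D1:**
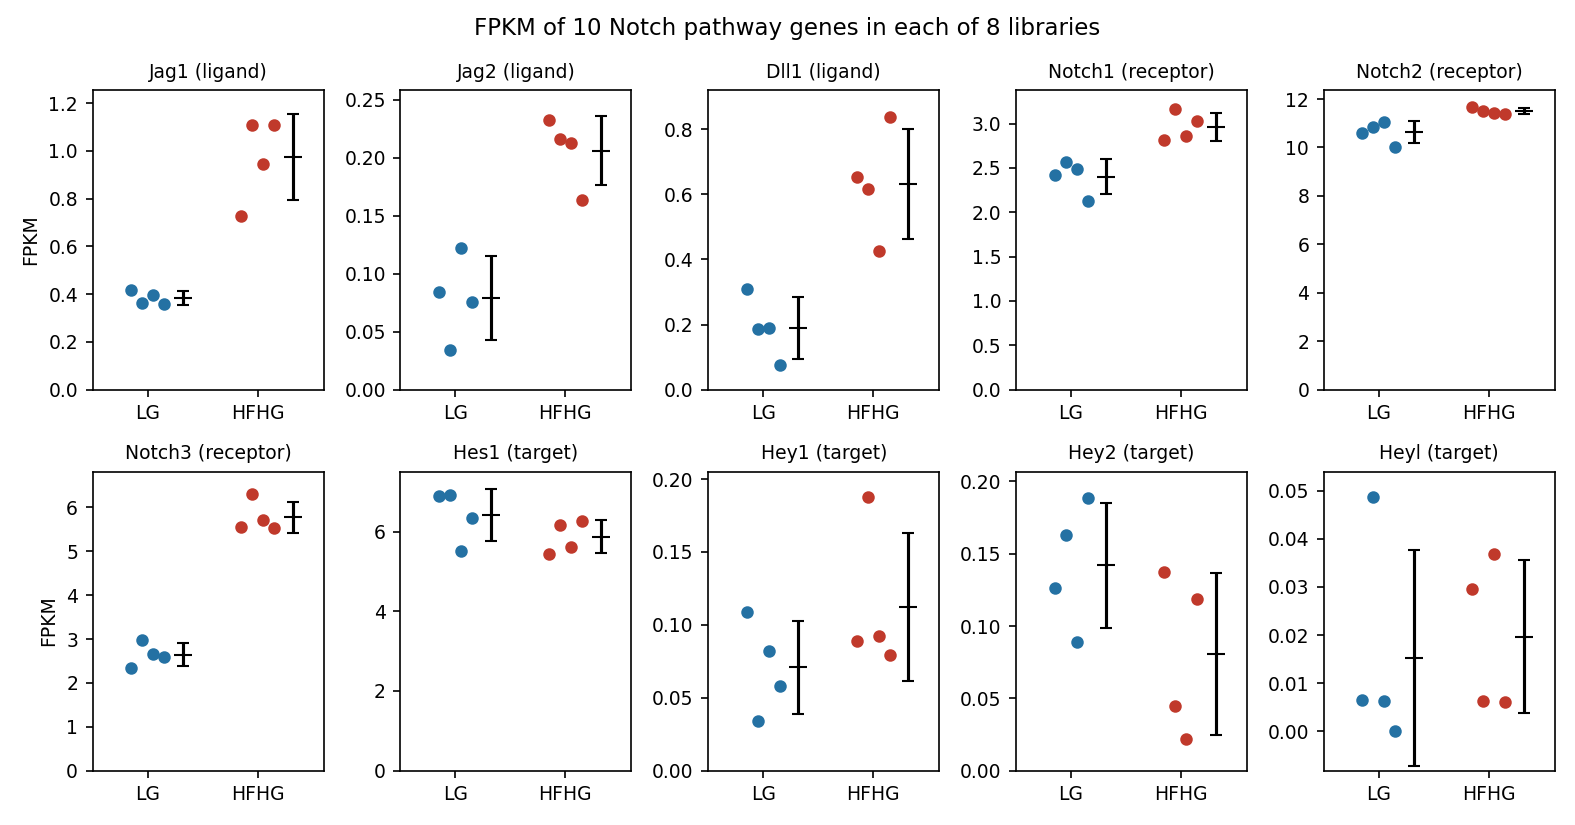
FPKM of the 10 genes (vertical axes, linear and separate for each gene) in 4 LG (blue) and 4 HFHG (red) libraries; each point is 1 library and the black bars give the mean ± SD. The ligands and receptors are higher in every HFHG library than in any LG library, and the points of Hes1, Hey1, Hey2 and Heyl overlap.

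The promoters of the genes with a mean FPKM more than 2 times as high in HFHG are shown because these genes moved in the same direction. By symbol, 7 of the 10 genes were matched to the RefSeq promoter table (GRCm38.p6), and Hes1, Hey1 and Heyl were not. The windows begin 250 bases before the RefSeq start and end there or, where GENCODE M21 places the gene's start further upstream, at that start. This left 126 bases for Jag1 (minus strand, chr2:137116645-137116770), 250 for the upstream start of Dll1 (minus strand, chr17:15376933-15377182) and 250 for Notch3 (minus strand, chr17:32166891-32167140). The entries of Jag2, Notch1 and the downstream start of Dll1 lie inside the annotated genes and were not searched. The Dll1 window lies wholly in an exon of A930024N18Rik, a noncoding RNA gene on the opposite strand, and the windows of Jag1 and Notch3 hold no annotated exon. Capitals mark matches to the motifs that were searched on both strands, and are found only in the Notch3 window.
Jag1: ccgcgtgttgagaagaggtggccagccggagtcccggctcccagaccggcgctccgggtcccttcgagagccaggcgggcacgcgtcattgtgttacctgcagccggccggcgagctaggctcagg
Dll1: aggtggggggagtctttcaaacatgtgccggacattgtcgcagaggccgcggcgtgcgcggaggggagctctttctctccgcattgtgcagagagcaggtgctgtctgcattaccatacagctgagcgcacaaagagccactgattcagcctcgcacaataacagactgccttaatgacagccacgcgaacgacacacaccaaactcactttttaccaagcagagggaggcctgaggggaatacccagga
Notch3: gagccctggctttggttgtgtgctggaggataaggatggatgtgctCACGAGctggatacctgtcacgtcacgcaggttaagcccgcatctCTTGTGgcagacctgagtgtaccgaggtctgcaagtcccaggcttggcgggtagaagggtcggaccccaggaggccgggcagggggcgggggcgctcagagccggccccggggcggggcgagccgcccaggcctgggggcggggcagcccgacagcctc
The motifs were TGGGAA, the core of the site bound by Rbpj, CACNAG, the N-box bound by Hes proteins, and CACGTG, an E-box. The Notch3 window held 2 matches to CACNAG, which did not overlap any other match, while 36.7% of the 32851 promoter entries held at least 1 in the same 250 bases. TGGGAA was absent from these 3 windows and was found in 21.6% of all entries over 250 bases and in 11.8% over the 126 bases used for Jag1. CACGTG was also absent, and 6.02% of all entries held it over 250 bases. Among the other genes, the window of Hey2 (232 bases) held 1 match to TGGGAA, against 20.2% of all entries with at least 1, and that of Notch2 (239 bases) held 1 match to CACNAG, against 35.5%. A match is a run of letters in the window and was not tested as a binding site.

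Jag1 encodes Jagged1, a transmembrane ligand of Notch receptors, and lies on chromosome 2 (GRCm38, chr2:137081456-137116644, minus strand). HFHG replicates 1 to 4 had 0.729, 1.11, 0.946 and 1.11 FPKM, and LG replicates 1 to 4 had 0.418, 0.364, 0.395 and 0.357 FPKM. Each HFHG library was above each LG library, and HFHG replicate 1 was the lowest of its group. The means were 0.973 ± 0.180 and 0.384 ± 0.0281 FPKM (SD, n = 4 each), and the log2 fold change was 1.14 (SE 0.147, limma adjusted p = 2.11e-05). These values rest on 319 to 475 reads per HFHG library and 149 to 168 reads per LG library, and the ratio of the pooled reads per total was 2.53 (exact binomial 95% interval 2.31 to 2.78, for counting error only). With a pseudocount of 1 in place of 0.1 the log2 fold change was 0.51 (adjusted p = 3.23e-05; range over all alternatives 3.78e-09 to 0.000147). The gene length behind the FPKM of Jag1 was 11717 bases, 2.01 times the 5827 bases of its exons in GENCODE M21, a ratio above 2 that 3.78% of 10687 genes with at least 1000 reads shared. With the GENCODE length its level would be 1.96 ± 0.363 in HFHG and 0.771 ± 0.0565 in LG, above 0.5 in all 8 libraries, so that it would pass the filter in both groups and not only through HFHG; its ratio between the groups does not depend on the length.

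Jag2, the other Jagged ligand (chr12:112907819-112929776, minus strand), was below the filter. Its values were 0.232, 0.216, 0.212 and 0.164 FPKM for the HFHG replicates in order of number, against 0.0843, 0.0341, 0.122 and 0.0754 FPKM for the LG replicates. The groups did not overlap, although the values came from only 29 to 42 reads per HFHG library and 6 to 21 reads per LG library. The means were 0.206 ± 0.0294 and 0.0791 ± 0.0362 FPKM (SD, n = 4 each; exact two-sided permutation p = 0.0286, the smallest that 70 arrangements of 4 against 4 libraries can give). The pooled reads per total gave a ratio of 2.62 (95% interval 1.90 to 3.65, for counting error only).

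Dll1 encodes Delta-like 1, a ligand of the Delta family (chr17:15367354-15376872, minus strand). The 4 HFHG libraries, by replicate number, had 0.653, 0.615, 0.425 and 0.837 FPKM of Dll1, whereas the LG libraries had 0.309, 0.186, 0.191 and 0.0744 FPKM. The groups did not overlap, and LG replicate 4, the library that stood apart, was the lowest of the 8 with 9 reads. The means were 0.632 ± 0.169 and 0.190 ± 0.0956 FPKM (SD, n = 4 each; exact two-sided permutation p = 0.0286). The pooled reads per total gave a ratio of 3.35 (95% interval 2.65 to 4.28, for counting error only). The means differed by 0.442 FPKM, and by 0.374 to 0.512 FPKM with each library left out in turn. Dll1 missed the filter with 3 HFHG libraries at 0.5 FPKM or more. Without a filter, limma gave adjusted p = 0.00341 for Jag2 and 0.00203 for Dll1, with log2 fold changes of 0.79 and 1.37. Exons of A930024N18Rik on the opposite strand share 867 bases with those of Dll1. The kit keeps the strand, but whether the counting used it is not given, so reads of the 2 genes cannot be told apart here.

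Summed over the 3 ligands, the level was 1.81 ± 0.256 FPKM in HFHG and 0.653 ± 0.134 FPKM in LG (SD, n = 4 each), a ratio of 2.78. The make-up of this pool varied between libraries within a group. Jag1 made up 53.7% ± 6.41 of the summed ligand FPKM in HFHG and 60.0% ± 8.25 in LG, Dll1 34.7% ± 6.55 and 27.9% ± 9.91, and Jag2 11.7% ± 2.94 and 12.1% ± 5.06 (SD, n = 4 each). The shares of each ligand overlapped between the groups. The differences in share depend on single libraries. With each library left out in turn, that of Jag1 (-6.36 points with all libraries) ran from -9.18 to -2.88, that of Dll1 (6.78) from 2.38 to 10.2 and that of Jag2 (-0.425) from -2.51 to 1.30. The smallest differences of Jag1 and Dll1 were those without LG replicate 4. With the GENCODE length, an alternative chosen after seeing the data, the share of Jag1 was 74.8% ± 5.04 and 79.3% ± 5.67.

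Notch1, the receptor best known from lymphocytes and endothelium, lies on chromosome 2 (chr2:26457903-26516663, minus strand). In HFHG its FPKM was 2.81, 3.16, 2.85 and 3.03 in replicate order, compared with 2.42, 2.57, 2.49 and 2.13 under LG. The groups were close but did not overlap. The means were 2.96 ± 0.160 and 2.40 ± 0.194 FPKM (SD, n = 4 each), and the log2 fold change was 0.29 (SE 0.0788, limma adjusted p = 0.00554). After quantile normalization it was 0.19 (adjusted p = 0.0452; range over all alternatives 0.000203 to 0.0452).

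Notch2, a broadly expressed receptor (chr3:98013527-98150361, plus strand), had the highest level of the 10 genes in both groups. Replicates 1 to 4 reached 11.7, 11.5, 11.4 and 11.4 FPKM under HFHG, and 10.6, 10.9, 11.1 and 10.02 FPKM under LG. All HFHG libraries were above all LG libraries, by a small margin. The means were 11.5 ± 0.128 and 10.6 ± 0.446 FPKM (SD, n = 4 each), and the log2 fold change was 0.11 (SE 0.0422, limma adjusted p = 0.0324), below the median absolute log2 fold change of all genes tested (0.247). The call was lost with median-ratio scaling (adjusted p = 0.0586), without any 1 of HFHG replicates 1 to 4 or LG replicate 1, and without LG replicate 4, where the log2 fold change was 0.085 and the adjusted p 0.0714. Over all alternatives the adjusted p ranged from 0.00534 to 0.0747, and with FPKM rescaled to the same sum the log2 fold change was 0.17.

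Notch3, the receptor best known from pericytes and vascular smooth muscle (chr17:32120820-32166852, minus strand), had the largest fold change of Notch1, Notch2 and Notch3. Replicates 1 to 4 of HFHG had 5.56, 6.30, 5.72 and 5.54 FPKM, against 2.34, 2.97, 2.67 and 2.60 FPKM in the LG replicates. The lowest HFHG library was far above the highest LG library. The means were 5.78 ± 0.354 and 2.64 ± 0.258 FPKM (SD, n = 4 each), and the log2 fold change was 1.10 (SE 0.0775, limma adjusted p = 6.70e-08), a fold change of 2.15. Notch3 had 1691 to 1861 reads per HFHG library and 671 to 900 reads per LG library. The ratio of pooled reads per total was 2.18 (95% interval 2.09 to 2.27, for counting error and not the spread between replicates). With a pseudocount of 1 the log2 fold change was 0.90, below the threshold for a fold change of 2. Exons of noncoding genes on the opposite strand share 488 bases with Notch3 (Gm17276) and 1068 and 414 bases with Notch1 (0610009E02Rik and Gm13568), and Gm42820 shares 541 bases with Notch2 on the same strand; reads in these stretches cannot be assigned to either gene here.

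The levels of Notch1, Notch2 and Notch3 summed to 20.2 ± 0.473 FPKM in HFHG and 15.7 ± 0.767 FPKM in LG (SD, n = 4 each), a ratio of 1.29, and the make-up of the sum differed as well. Notch3 made up 27.7%, 30.1%, 28.6% and 27.7% of the summed receptor FPKM in the HFHG libraries, by replicate number, against 15.2%, 18.1%, 16.5% and 17.6% in the LG libraries. Its share was higher in every HFHG library than in any LG library, at a mean of 28.5% ± 1.10 against 16.9% ± 1.27 (SD, n = 4 each), a difference of 11.7 points. The share of Notch2 was lower in every HFHG library, at 56.8% ± 1.42 against 67.8% ± 1.17, a difference of -11.0 points. That of Notch1 was 14.6% ± 0.569 and 15.3% ± 0.619, with overlapping groups. Because the 3 shares add up to the whole, they do not move independently. With GENCODE lengths the difference was 12.6 points for Notch3 and -12.0 points for Notch2.

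**Figure D2:**
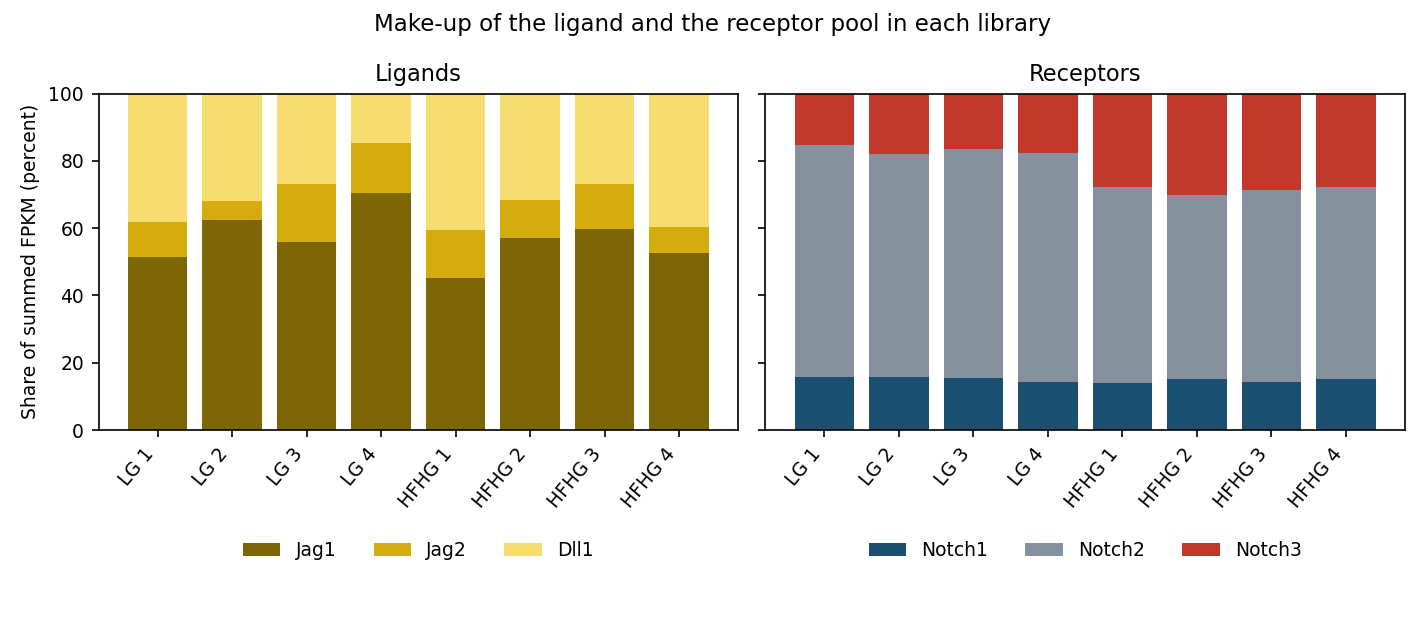
Share of each ligand (left) and each receptor (right) in the summed FPKM of its family, in percent, with 1 bar for each LG and HFHG library. The Notch3 segment takes 15.2% to 18.1% of the LG bars and 27.7% to 30.1% of the HFHG bars, while the ligand segments vary within both groups.

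Hes1 encodes the transcription repressor that is widely used as a readout of Notch activity (chr16:30064384-30067796, plus strand). HFHG libraries had 5.44, 6.15, 5.60 and 6.28 FPKM of Hes1 in replicate order, while LG libraries had 6.89, 6.91, 5.51 and 6.35 FPKM. The groups overlapped, since LG replicate 3 lay among the HFHG libraries. The means were 5.87 ± 0.409 and 6.41 ± 0.655 FPKM (SD, n = 4 each), and the log2 fold change was -0.12 (SE 0.0774, limma adjusted p = 0.182). The exact two-sided permutation test gave p = 0.229. Without LG replicate 3 the log2 fold change was -0.19 and passed the test (limma adjusted p = 0.0277; range over all alternatives 0.0277 to 0.503).

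The Hey genes encode related repressors known from heart and vessel development, and lie at chr3:8663359-8667256 (Hey1), chr10:30832359-30842801 (Hey2) and chr4:123233556-123249875 (Heyl). All 3 were below the filter and rest on few reads. Hey1 had 7 to 16 reads per HFHG library and 3 to 9 per LG library, with means of 0.112 ± 0.0507 and 0.0709 ± 0.0320 FPKM (SD, n = 4 each; exact two-sided permutation p = 0.229). Hey2 had 2 to 13 and 8 to 17 reads, with means of 0.0807 ± 0.0561 and 0.142 ± 0.0434 FPKM (n = 4 each; exact p = 0.171). For Heyl there were 1 to 6 and 0 to 8 reads, with means of 0.0196 ± 0.0159 and 0.0153 ± 0.0224 FPKM (n = 4 each; exact p = 0.857). The count of 0 in LG replicate 4 allows a Heyl level of up to 0.0186 FPKM (3 reads, for counting error only). The groups of all 3 genes overlapped, and single libraries weigh heavily. With each library left out in turn, the difference of the means ran from 0.0160 (without HFHG replicate 2) to 0.0539 FPKM for Hey1 (0.0412 with all libraries), from -0.0801 to -0.0416 for Hey2 (-0.0612) and from -0.00138 to 0.0154 (without LG replicate 2) for Heyl (0.00433), whose sign changed without HFHG replicate 3 or LG replicate 4. A difference in Hey1 was not detectable at this depth, with a ratio of pooled reads per total of 1.58 (95% interval 0.929 to 2.75), nor in Heyl, at 1.27 (95% interval 0.513 to 3.23). For Hey2 the ratio was 0.573 (95% interval 0.353 to 0.918), an interval that covers counting error but not the spread between replicates. Hes1 accounted for 96.5% ± 0.800 of the summed FPKM of the 4 targets in HFHG and 96.6% ± 0.257 in LG.

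Since FPKM is per length, the mean levels of the 10 genes can be set in order within a group. In HFHG the order was Notch2, Hes1, Notch3, Notch1, Jag1, Dll1, Jag2, Hey1, Hey2 and Heyl. There the libraries of Hes1 and Notch3 overlapped, as did those of Jag1 and Dll1, and those of neighbours from Jag2 down to Heyl. In LG the order was Notch2, Hes1, Notch3, Notch1, Jag1, Dll1, Hey2, Jag2, Hey1 and Heyl, where Notch3 overlapped Notch1 and neighbours from Dll1 downward overlapped. This order depends on the gene lengths. With the GENCODE length of each gene, Notch3 would lie above Hes1 in HFHG (5.97 ± 0.366 and 4.99 ± 0.347) and further above Notch1 in LG (2.42 to 3.07 and 1.42 to 1.71), with no overlap of libraries in either case, and Jag1 (1.96 ± 0.363) would overlap Notch1 (1.98 ± 0.107) in HFHG.

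**Figure D3:**
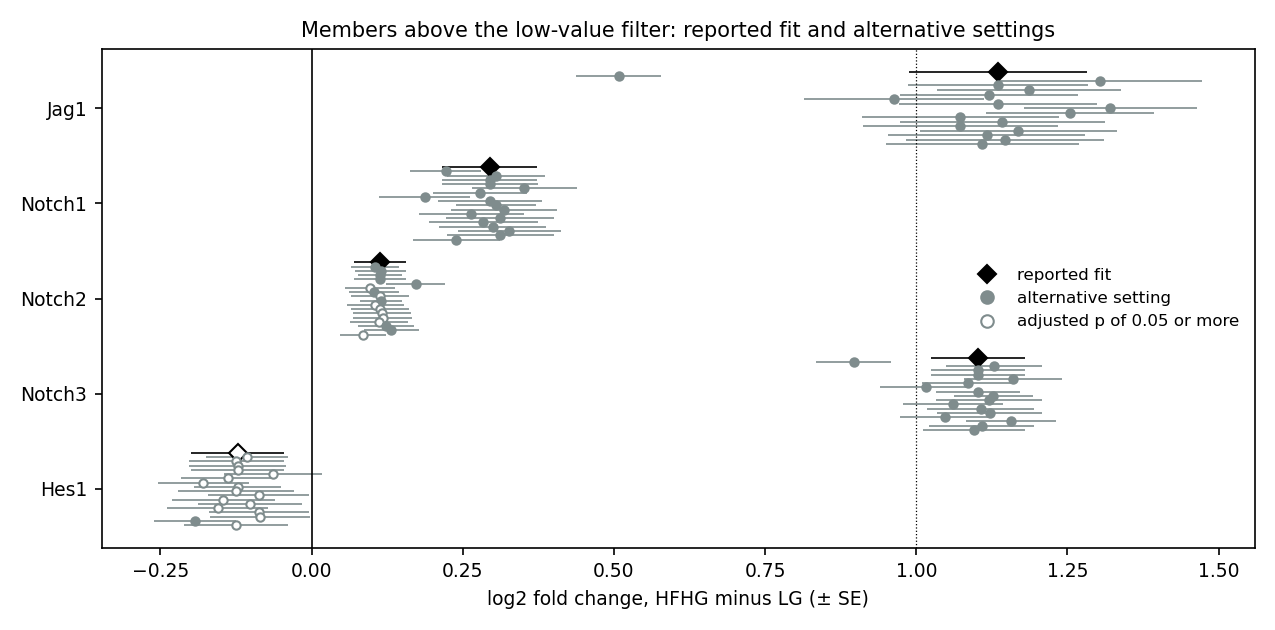
Log2 fold change, HFHG minus LG (horizontal axis, ± SE), of the 5 genes above the filter in the reported limma fit (black diamonds) and under the alternative settings (grey), with open symbols for an adjusted p of 0.05 or more and a dotted line at 1, a fold change of 2. Notch1 and Notch3 stay called in all settings shown, and Jag1, which passed the filter only through HFHG, in all in which it was tested. The adjusted p of Notch2 and of Hes1 crosses 0.05 between settings, while the sign of each stays the same.

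Other genes of the pathway were taken from lists of known components. Of 74 further genes listed, 62 passed the filter, of which 25 were higher in HFHG, 14 were lower and 23 were not called. The share called, 62.9%, lies near the 64.8% of all genes tested, and their median log2 fold change was 0.083 against 0.017 for all genes tested. The further ligands and ligand-like genes, receptor, Hes genes and Nrarp formed a list of 11, of which 2 were tested. Notch4, the receptor best known from endothelium, had 0.913, 0.921, 0.826 and 0.760 FPKM in the HFHG libraries, by replicate number, against 0.308, 0.362, 0.290 and 0.339 FPKM under LG. The groups did not overlap, but Notch4 passed the filter only through HFHG and so had to differ (log2 fold change 1.17, limma adjusted p = 5.77e-06). Hes6, a family member that opposes Hes1, had means of 17.9 ± 1.37 and 22.7 ± 0.545 FPKM (SD, n = 4 each) and was lower in HFHG (log2 fold change -0.34, limma adjusted p = 5.68e-05). The other 9 were below the filter. Of these, Dlk2 had 0.280 ± 0.180 and 0.0773 ± 0.0300 FPKM, Dlk1, a ligand-like protein without the receptor-activating domain, 0.206 ± 0.0318 and 0.315 ± 0.00809, Hes7 0.241 ± 0.105 and 0.0790 ± 0.0604, and Nrarp, a target that dampens the pathway, 0.0723 ± 0.0467 and 0.0382 ± 0.0439. Dll3, Dll4, Hes2, Hes3 and Hes5 had group means of at most 0.0394 FPKM.

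Enzymes that put sugars on the receptors' extracellular repeats gave 4 higher and 3 lower among 10 tested (median log2 fold change 0.046). The xylosyltransferases Gxylt1 (0.52, limma adjusted p = 2.18e-06) and Gxylt2 (0.44, adjusted p = 0.00469) were higher by these log2 fold changes. Lfng, a Fringe enzyme that alters the response of receptors to Jagged and Delta ligands, was lower, with 0.926 ± 0.203 FPKM in HFHG and 1.32 ± 0.0959 in LG (SD, n = 4 each; log2 fold change -0.49, limma adjusted p = 0.00875; -0.28 with a pseudocount of 1).

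Of the 10 proteases and gamma-secretase subunits, all tested, 4 were higher and 3 lower (median log2 fold change 0.0089). Aph1b (0.61, limma adjusted p = 6.81e-06) and Aph1c (0.36, adjusted p = 0.0127) were higher, while the protease Adam17 was lower (-0.33, adjusted p = 3.59e-06). Furin (0.20, adjusted p = 3.30e-05) and Adam10 (0.17, adjusted p = 0.000996) were also higher. Psenen (-0.32, adjusted p = 2.66e-05) and Ncstn (-0.27, adjusted p = 4.81e-06) were also lower. Aph1b and Aph1c are near-identical gamma-secretase subunits, so the split of their reads is uncertain, and the call of Aph1c was lost after quantile normalization (0.18, adjusted p = 0.158). Of 6 tested genes for ubiquitination and uptake of ligands, 2 were higher (Epn2, an endocytic adaptor, 0.38, limma adjusted p = 7.51e-06; Mib2, a ubiquitin ligase, 0.19, adjusted p = 0.00879) and the other 4 were not called (median of the list 0.12).

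Genes of receptor trafficking and breakdown gave 4 higher and 3 lower of 11 tested (median 0.0068). Dtx4, a Deltex ubiquitin ligase, had 6.55 ± 0.190 FPKM in HFHG and 12.4 ± 0.390 in LG (SD, n = 4 each) and fell with a log2 fold change of -0.91 (limma adjusted p = 1.95e-09). Fbxw7, which marks the intracellular domain for degradation, was higher (0.57, limma adjusted p = 0.000104), as was the kinase Aak1 (0.34, adjusted p = 4.85e-05). Of the 9 genes for Rbpj and its coactivators, 4 were higher and 2 lower (median 0.089). Maml2 (0.92, limma adjusted p = 8.09e-05) and Maml3 (0.67, adjusted p = 0.00135), both Mastermind-like coactivators, passed the filter only through HFHG and so had to differ, and were followed by the acetyltransferase Kat2b (0.43, adjusted p = 0.000307). With a pseudocount of 1 the log2 fold changes of Notch4, Maml2 and Maml3 were 0.49, 0.33 and 0.28. Rbpj itself, named after its values were seen, was lower in HFHG, with 7.74 ± 0.211 against 10.2 ± 0.190 FPKM (SD, n = 4 each; log2 fold change -0.40, limma adjusted p = 3.66e-06). Of 14 corepressors, 6 were higher and 2 lower (median 0.15), led by the Groucho-related Tle2 (0.61, limma adjusted p = 0.00021) and Tle3 (0.47, adjusted p = 1.57e-06) and by Cir1 (0.54, adjusted p = 6.92e-05), which binds Rbpj.

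**Figure D4:**
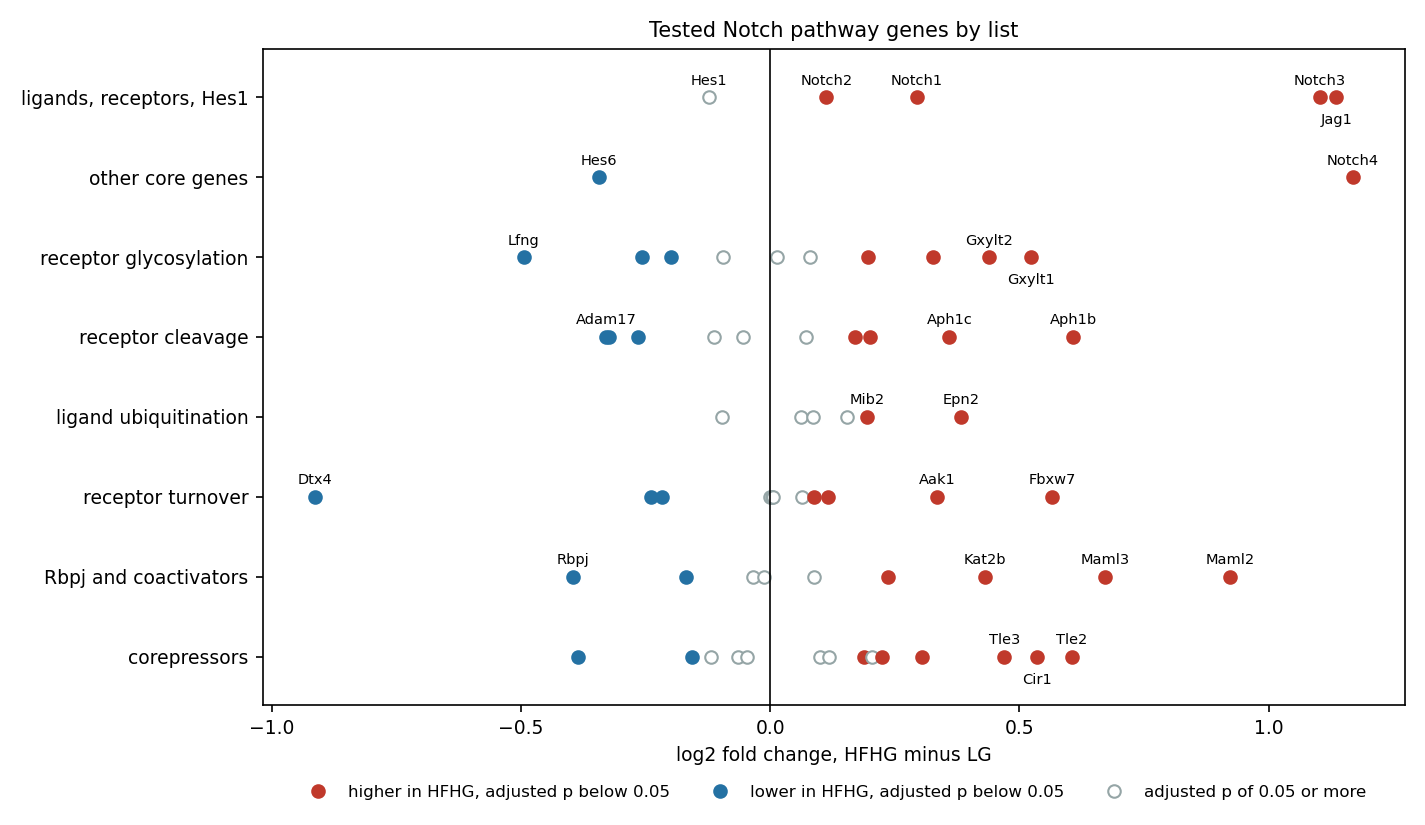
Log2 fold change, HFHG minus LG (horizontal axis), of the tested members (top row) and of the other tested pathway genes, 1 point per gene and 1 row per list; red points were called higher, blue points lower, and open points were not called. Notch3, Jag1 and Notch4 lie furthest to the right at 1.10 to 1.17, and Dtx4 furthest to the left at -0.91.

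Taking, among the members above the filter, the only ligand (Jag1), the only target (Hes1) and the receptor with the largest fold change (Notch3), the genes most alike over the 8 libraries were sought among 10668 genes whose overall mean reached 1 FPKM, by the root mean square difference of log2(FPKM + 0.1) after subtracting each gene's LG mean. For Notch3 these were Mgst3 (0.0762), Apbb1 (0.0774) and Arrdc3 (0.0795). Slc16a9 (0.0986), Dapk1 (0.127) and Tbx3 (0.135) were nearest to Jag1, and Kbtbd2 (0.0510), Tmem231 (0.0529) and Tada2b (0.0595) to Hes1. The values are a description of these libraries.

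The label of the cells was checked against marker genes. All 10 tendon markers were detected above the filter, with Dcn the most abundant. Their summed FPKM was 2104 to 2150 in the HFHG libraries and 1304 to 1344 in the LG libraries. In HFHG 7 of them were higher and 2 lower, beside 34.0% and 30.8% of all genes tested. These 7 include Tnmd, which passed the filter through HFHG only, since LG replicate 1 had 0.220 FPKM. The tendon factors Scx (2.27 ± 0.558 and 1.45 ± 0.336 FPKM) and Tnmd (1.10 ± 0.0908 and 0.614 ± 0.298 FPKM) were low in both groups (SD, n = 4 each). Both were called higher in HFHG, Scx with a log2 fold change of 0.61 (limma adjusted p = 0.0138) and Tnmd with 0.86 (adjusted p = 0.0164). The libraries of Scx overlapped, at 1.53 to 2.88 FPKM in HFHG and 0.983 (replicate 4) to 1.76 FPKM in LG. The direction of both calls is opposite to the study's qPCR, which found both genes lower in HFHG medium. The study also reported lower TNMD protein in that medium, and the culture time of this qPCR is not given. The 6 surface markers of cultured TSCs, led by Ly6a in HFHG and Itgb1 in LG, summed to 1433 to 1468 and 1164 to 1173 FPKM, with 4 higher and 2 lower. Macrophage markers were abundant too. Their sum, mostly Lyz2, was 1703 to 1754 FPKM in HFHG and 1861 to 1942 FPKM in LG. Of the 6 markers, 5 were lower in HFHG, beside 30.8% of all genes tested. Among them was C1qa (18.6 ± 0.549 and 36.6 ± 2.68 FPKM, log2 fold change -0.97, limma adjusted p = 2.58e-09).

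Because Notch3 and Notch4 are known from vessels, mural and endothelial markers are set beside them. The 8 mural markers, led by Pdgfrb, summed to 35.5 to 37.0 FPKM in HFHG and 29.8 to 31.6 FPKM in LG. The 3 that were tested, Pdgfrb (0.16, limma adjusted p = 0.000401), Cspg4 (0.59, adjusted p = 4.38e-06) and Mcam (0.47, adjusted p = 0.00232), were higher in HFHG, beside 34.0% of all genes tested. The defining mural genes Rgs5, Kcnj8, Abcc9, Myh11 and Des had means below 0.5 FPKM in both groups and were below the filter. Of these, Rgs5 (0.203 ± 0.0429 and 0.0981 ± 0.0495 FPKM) and Myh11 (0.317 ± 0.00207 and 0.120 ± 0.0241 FPKM) were higher in every HFHG library than in any LG library (SD, n = 4 each), and the groups of the other 3 overlapped. The 8 endothelial markers, led by Egfl7, summed to 5.09 to 6.47 and 4.53 to 5.96 FPKM, with 5 below 0.5 FPKM, among them Pecam1 (0.152 ± 0.0462 and 0.108 ± 0.0226) and Cdh5 (0.0873 ± 0.0546 and 0.154 ± 0.0277). Of the 3 tested, Tek and Egfl7 were higher. Vwf, with 0.393 ± 0.0271 and 1.04 ± 0.0763 FPKM (SD, n = 4 each), passed the filter only through LG and so had to differ. The 5 Schwann cell markers, led by Sox10, summed to 5.16 to 5.87 and 3.93 to 4.83 FPKM, with 1 of 4 tested higher. The 5 muscle markers found, mostly Acta1, summed to 0.643 to 1.67 and 3.44 to 4.21 FPKM, with the 1 tested lower. The muscle markers Myf5 and Myog were not among the genes listed, so their levels are not known here. The 5 epithelial markers, led by Cdh1 in HFHG and Epcam in LG, stayed below the filter with sums of at most 0.582 FPKM. In none of these lists was a listed marker at 0 in all 8 libraries. The part of these cell types in the differences of the Notch genes was not tested.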

How the data were processed

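mRNA of 4 HFHG and 4 LG cultures of mouse TSCs was sequenced, and groups and replicate numbers come from the sample labels. The authors deposited FPKM values per gene and library, made from a stranded mRNA library kit; the submitters' processing notes name HISAT2 2.1.0 and the build mm10, and the counting program, annotation and use of strand are not given in the sources used here. Columns of annotation terms were not used. Whole reads were recovered from the FPKM for 19301 of 19301 genes (relative tolerance 1e-06) and served for depth, intervals and an alternative fit.

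limma 3.58.1 (R 4.3.3; lmFit and eBayes with trend) was run on log2(FPKM + 0.1) for all genes with at least 0.5 FPKM in 4 libraries, HFHG minus LG, with Benjamini-Hochberg adjustment. Single genes were also compared by exact two-sided permutation over 70 arrangements. Scripts were tested on simulated data. Shares within a family were taken per library. For other pathway lists, up to 3 genes with the largest called change were named, besides all further ligands, receptors and Hes genes; other names, such as Rbpj, C1qa, Scx, Tnmd, Vwf and the single mural and endothelial genes, were chosen after their values were seen. Alternatives were other pseudocounts (1, 0.01), no filter, a minimum of 1 FPKM, 3 other scalings, the replicate number as a block, voom on the recovered reads, and each library left out. The members and lists were chosen with earlier results of these data known.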

Additional observations from a re-analysis of the deposited data

Results flagged for a closer look

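In each group of 4 libraries, a library was picked out when its gap to the nearest other library was a large part of the range (Dixon's test at the 95% level), for the 10 Notch genes and the other genes named by rule. This picked out 4 of 58 groups, and chance does so in about 1 in 20 groups. Hey1 had 0.188 FPKM in HFHG replicate 2 against 0.0795 to 0.0923 in the other HFHG libraries, that is 16 reads against 7 to 8. Heyl had 0.0486 FPKM in LG replicate 2 against 0 to 0.00643 in the other LG libraries, or 8 reads against 0 to 1. Gxylt2 had 1.34 FPKM in LG replicate 4, the library that stood apart, against 1.86 to 1.92, and without that library its log2 fold change was 0.33 (limma adjusted p = 0.00682). Aph1c had 0.869 FPKM in HFHG replicate 4 against 0.824 to 0.828.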

How the results depend on the processing

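The calls of Notch1 and Notch3 kept their direction and their side of the threshold in all alternatives. That of Jag1 did so wherever it was tested. Under the filter of 0.5 FPKM, Jag1 passed only through HFHG and had to differ, so these repeats give its call no added weight. With a minimum of 1 FPKM, Jag1 could not be tested. With a pseudocount of 1, 303 genes passed a fold change of 2 (624 as reported), and 0 of the Notch members did (2 as reported). With a minimum of 1 FPKM or quantile normalization, 1 member passed it. Without a filter on low values, 3 members and 772 genes did. Leaving out each library gave 613 to 637 such genes and 2 members each time, and 3 to 5 members and 7177 to 7519 genes with an adjusted p below 0.05.

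The log2 fold change of Notch2 was 0.097 with median-ratio scaling (adjusted p = 0.0586) and 0.085 to 0.13 with each library left out in turn (adjusted p 0.0255 to 0.0747); that of Hes1 ran from -0.19 to -0.086 (adjusted p 0.0277 to 0.384). The cause of these changes was not tested. The direction of every member tested was the same under each scaling, and no scaling moved the median of all genes by over 0.1.

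Same-numbered HFHG and LG libraries did not deviate together (r = -0.0207, -0.00955, -0.00558 and -0.0736 across genes). No HFHG library correlated best with the LG library of its own number, so no pairing by number was visible. A pairing that leaves no shared deviation would not be seen this way. With the replicate block, the log2 fold change of Notch2 stood at 0.11 but its call was lost (adjusted p = 0.0638), and 7342 genes were called against 7592.

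Depth limits Hey1, Hey2 and Heyl, with 0 to 17 reads per library. Shares within a family were also taken with GENCODE exon lengths, chosen after seeing the data, and kept their direction for Notch2 and Notch3. The small difference in the share of Jag2 turned from -0.425 to 0.0969 points.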
